A study of Mus musculus with 8 samples.

Results

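The 9 genes described here encode the cerebral cavernous malformation (CCM) complex, the kinase arm that it restrains and the transcription factors at the end of that arm. They were chosen by symbol from a deposited table of 24421 gene rows, and all 9 were among the 11797 genes with enough counts to be tested. Krit1 was selected from its measured values, since it lies in a run of genes on chromosome 5 whose counts are low in the knockdown libraries, so its difference is given as a description without a test. The other 8 were taken for their place in the pathway, with earlier results of these data known. The question asked was whether Klf2 and Klf4, which rise when CCM proteins are lost in other cells, differ where Krit1 is low.

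RNA was sequenced from KPCY cells, mouse pancreatic cancer cells labelled as male. One group (knockdown, 4 libraries) carried a lentiviral vector inhibiting miR-27a-3p, and the other (scrambled, 4 libraries) carried a vector with a scrambled sequence. Both groups share lentiviral transduction, selection in 2 µg/mL puromycin for 7 days, growth in DMEM (glucose at 4.5 g/L, 10% serum), and isolation of RNA 24 hours after seeding. The libraries are labelled as biological replicates, but the labels describe the making of stable cells only once and do not say whether replicates came from separate transductions. If each group is 1 stable line, the inhibitor and other differences between the lines cannot be told apart, and p-values measure only the spread between these libraries. The deposited counts summed to between 19165513 and 23542275 per library. Scrambled replicate 2 stood apart: pairs that include it gave chi-square values per gene from 5.17 up to 5.35, and the remaining scrambled pairs from 1.80 up to 2.35.

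The KRIT1 protein binds CCM2, which also binds PDCD10, and the HEG1 receptor holds KRIT1 at cell junctions. In endothelial cells the complex restrains the kinase MEKK3 (Map3k3), which acts through MEK5 (Map2k5) and ERK5 (Mapk7) on MEF2 factors and so on transcription of Klf2 and Klf4. Inherited loss of KRIT1, CCM2 or PDCD10 causes leaky clusters of dilated brain vessels. In epithelia KLF4 is best known as a factor of differentiated cells that leave the cell cycle.

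The vector is directed against miR-27a-3p (GRCm38 chromosome 8, 84208727 to 84208747, plus strand), so the members were searched for its sites. Its RefSeq sequence is shown 5′ to 3′ with the seed, bases 2 to 8, in capitals. Below it are the 8-base matches found in the members, and the 7-base match of each member that held only such a one. In these, capitals mark the match on the coding strand, ACTGTGAA for 8 bases and CTGTGAA for 7.
mmu-miR-27a-3p: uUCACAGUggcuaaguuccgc
Ccm2 (chr11:6596493-6596522): ccaggtcctctACTGTGAAggagtggagag
Heg1 (chr16:33766997-33767026): gcactgttgttACTGTGAAcatggtcgtgg
Heg1 (chr16:33768845-33768874): gttcttttattACTGTGAAaaacaccagga
Klf2 (chr8:72321099-72321127): aagacaggagtCTGTGAAgaatgttttca
Mapk7 (chr11:61488824-61488852, minus strand): caaaatgaggcCTGTGAAatacaaggttt
These stretches come from the longest annotated 3′ UTR of each gene in GENCODE (GRCm38), on the plus strand except in Mapk7. Ccm2 held 1 and Heg1 2 of the 8-base matches, and Heg1 2 further 7-base ones. Krit1, Pdcd10, Map3k3, Map2k5 and Klf4 held no match of either kind, although the 3′ UTR searched for Krit1 was 3361 bases long. Among 11359 tested genes with a 3′ UTR, 6.42% held the 8-base match and 29.5% held some match of 7 or 8 bases. A match is a stretch of letters and not a measured site.

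Krit1 was the member whose level was lowest relative to the scrambled libraries. Levels here are in CPM, counts scaled to a common library size, with TMM factors that correct that size for composition. Krit1 (chromosome 5, 3803184 to 3845564) stood at 44.8, 42.6, 43.3 and 46.0 CPM in knockdown replicates 1 to 4 and at 229, 226, 229 and 225 CPM in scrambled replicates 1 to 4. The 4 knockdown libraries lay close together and far below every scrambled library. The means were 44.2 ± 1.53 and 227 ± 2.32 CPM (SD, n = 4), a level 5.14-fold lower (log2 fold change −2.36, SE 0.0313), so that 19.4% of the scrambled level was present. In bulk RNA, fewer cells with the transcript and less of it per cell cannot be told apart. Behind these values are 822 to 1009 counts per knockdown library and 4487 to 5350 per scrambled library.

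The genes beside Krit1 were low by like amounts. Of the 3 nearest tested genes on each side, Ankib1 next to it stood at 99.3 ± 2.93 against 518 ± 9.52 CPM (log2 −2.38) and Gatad1 at 136 ± 4.79 against 713 ± 17.7 CPM (log2 −2.39). On the other side Mterf1a, a mitochondrial transcription factor with a close relative in Mterf1b, had a log2 fold change of −2.49, and Akap9, a kinase-anchoring protein of the Golgi and centrosome, had −2.21. The 6 neighbours had a median of −2.44, and Krit1 lay within their range, from −3.01 in Cyp51, an enzyme of cholesterol synthesis, to −2.21. The 3 genes with the smallest root-mean-square difference from Krit1 in centred log2 CPM, of 9876 genes compared over 8 libraries, were Gatad1 (0.0382), Ankib1 (0.0508) and Steap2 (0.0875). All 3 are on chromosome 5, and low counts along that stretch are what led to the choice of Krit1.

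**Figure D1:**
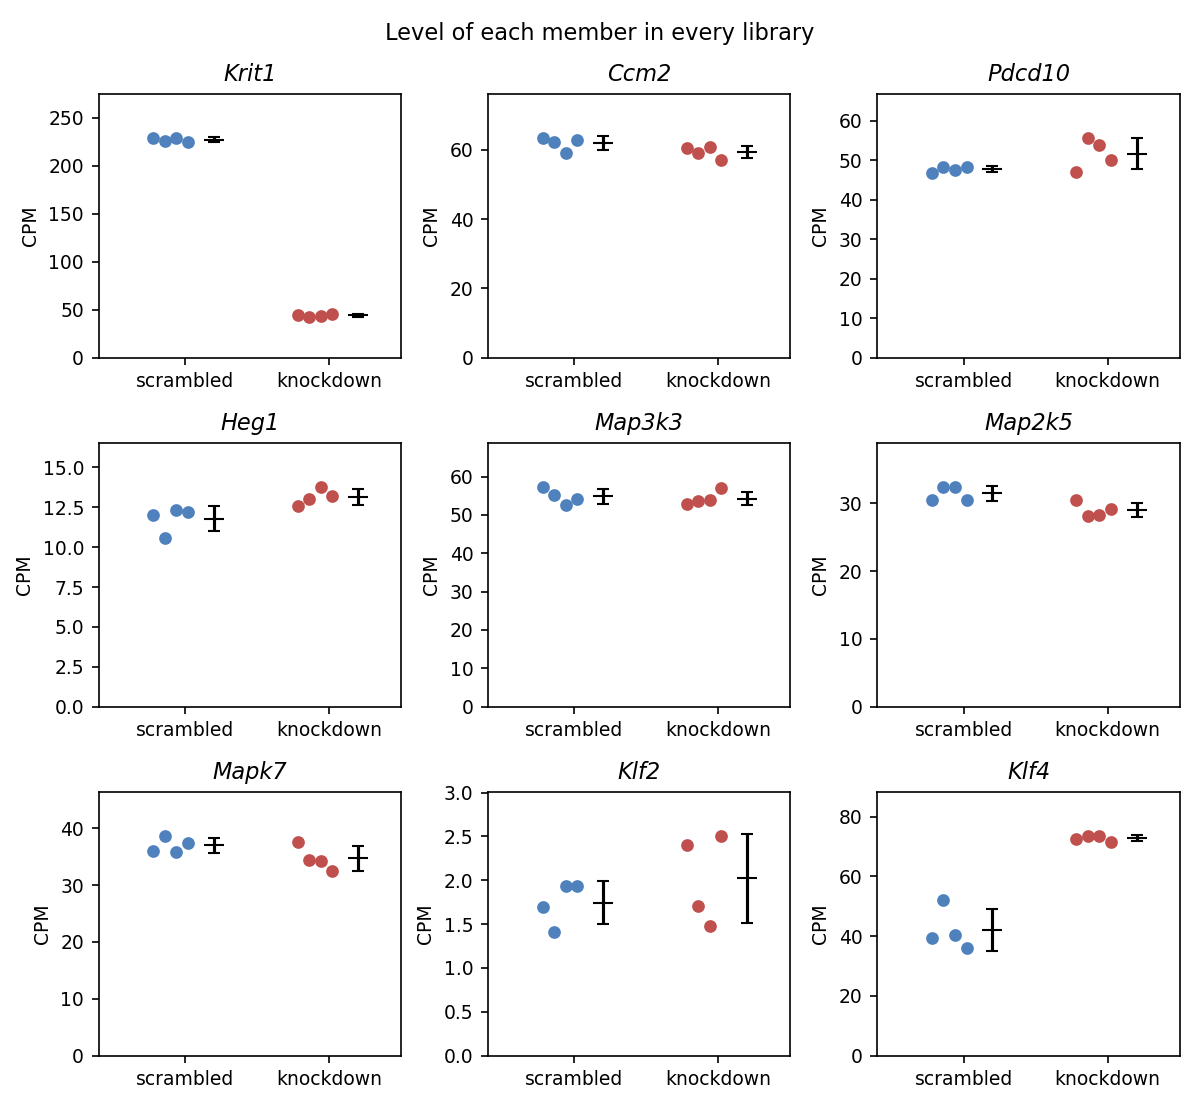
CPM (vertical axis, from 0) of each of the 9 members in the 4 scrambled (blue) and 4 knockdown (red) libraries, with the mean and SD in black. Krit1 and Klf4 separate the groups widely, Heg1 separates them narrowly, and the other 6 members overlap; the groups do not overlap in 42.2% of all tested genes.

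The 3 other parts of the complex were not called. Differences were called at a Benjamini-Hochberg adjusted p under 0.05 in edgeR's quasi-likelihood test over all tested genes, with no limit on the fold. Of all tested genes 47.9% were called, 23.8% higher and 24.1% lower in the knockdown. Of the 8 members other than Krit1, 1 (Klf4) was called. The fold changes of the 8 had a median of 0.0507 on the log2 scale against 0.0017 over all tested genes, and a median size of 0.115 against 0.133.

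Ccm2, the scaffold between KRIT1 and PDCD10, stood at 60.6, 59.1, 60.9 and 57.2 CPM in knockdown replicates 1 to 4 and at 63.6, 62.4, 59.2 and 62.9 CPM in scrambled replicates 1 to 4. The groups overlapped, and the fold change was 0.959 with a 95% interval of 0.907 to 1.01 (edgeR adjusted p = 0.204). Its 3′ UTR holds an 8-base miR-27a match (above).

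Pdcd10, which ties the complex to the GCKIII kinases and to the STRIPAK phosphatase assembly, stood at 47.1, 55.8, 53.9 and 50.2 CPM in the knockdown, against 46.7, 48.4, 47.6 and 48.3 CPM in scrambled libraries. Knockdown replicate 1 lay among the scrambled libraries and the other 3 lay above them. The fold change was 1.08 (95% interval 1.01 to 1.16, adjusted p = 0.0526 in edgeR), just short of the threshold. The edgeR adjusted p was 0.0103 without knockdown replicate 1 and 0.0263 without scrambled replicate 2. With all libraries kept it was 0.047 with the replicate block, 0.0186 with library totals, 0.0405 with no low-count filter and 0.0485 with the 1 CPM filter. Of the 17 alternatives, the fold limit of 1.2 tests for a larger change and did not call Pdcd10. Over the others the edgeR, DESeq2 or limma-voom adjusted p ran from 0.0103 to 0.215, the latter without knockdown replicate 2. The call thus depended on the libraries, the scaling, the filter and the block.

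Heg1, the membrane receptor, was a low-abundance member with 12.6, 13.0, 13.8 and 13.2 CPM in the knockdown, against 12, 10.6, 12.3 and 12.2 CPM in scrambled libraries. Every knockdown library was above every scrambled one, by a small margin. The groups were likewise without overlap in 42.2% of all tested genes. The fold change was 1.12 (95% interval 1.00 to 1.24, edgeR adjusted p = 0.0861). Its exons share 318 bases with an antisense gene, Gm15657, so part of its counts is uncertain without the strand setting. This is the member with a pair of 8-base matches to the miR-27a seed.

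The kinase arm was not called at any of its 3 steps. Map3k3 stood at 52.8 to 56.9 CPM in the knockdown, against 52.7 to 57.4 CPM in scrambled libraries, and these ranges nearly coincide (fold change 0.991, 95% interval 0.935 to 1.05, edgeR adjusted p = 0.824). Its direction is therefore not defined by these data.

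Map2k5, which phosphorylates ERK5, stood at 30.5, 28.1, 28.3 and 29.2 CPM in the knockdown, against 30.5, 32.4, 32.5 and 30.5 CPM in scrambled libraries (fold change 0.923, 95% interval 0.858 to 0.993, edgeR adjusted p = 0.0643). Mapk7, the ERK5 kinase itself, stood at 37.6, 34.4, 34.3 and 32.4 against 36.0, 38.7, 35.8 and 37.3 CPM (fold change 0.939, 95% interval 0.872 to 1.01, edgeR adjusted p = 0.145). In both genes knockdown replicate 1 was the highest knockdown library and lay within or at the edge of the scrambled range. Without that library the edgeR adjusted p was 0.0437 for Map2k5 and 0.0471 for Mapk7, and 4 of the 8 members were called in place of 1. Mapk7 shares 89 exon bases with Mfap4 on the opposite strand. Messenger levels of kinases carry no measure of their activity, which was not assayed here.

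Klf4 was the member that rose. It stood at 72.6, 73.4, 73.7 and 71.7 CPM in knockdown replicates 1 to 4 and at 39.3, 52.1, 40.3 and 36.0 CPM in scrambled replicates 1 to 4. The knockdown libraries lay close together and all above the scrambled libraries, among which replicate 2 was the highest. The means were 72.8 ± 0.863 and 41.9 ± 7.01 CPM (SD, n = 4), a 1.74-fold rise (log2 0.80, SE 0.0678, 95% interval 1.58 to 1.92-fold, edgeR adjusted p = 2.03e-09). Klf4 was called under each of the 17 alternatives tried, with a log2 fold change of 0.74 to 0.92, the latter without scrambled replicate 2. A rise of that size or more was found in 292 of the 11797 tested genes (2.48%).

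Klf2 did not pass the test, and its counts were too few to set a narrow limit. It stood at 2.40, 1.71, 1.48 and 2.51 CPM in the knockdown, against 1.70, 1.41, 1.93 and 1.94 CPM in scrambled libraries, from 28 to 55 counts each. Knockdown replicates 1 and 4 were above all scrambled libraries, and replicates 2 and 3 lay among them. The means were 2.03 ± 0.508 and 1.74 ± 0.250 CPM (SD, n = 4), with a fold change of 1.16 and a 95% interval of 0.868 to 1.56 (edgeR adjusted p = 0.40). The 1.74-fold rise estimated for Klf4 lies outside this interval, and any rise up to 1.56-fold lies inside it.

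Whether Klf4 and Klf2 moved differently was tested on their ratio within each library. The log2 ratio of Klf4 to Klf2 CPM was 5.20 ± 0.388 in the knockdown (SD, n = 4) and 4.58 ± 0.435 in scrambled libraries (SD, n = 4). Their ranges, 4.84 to 5.64 and 4.21 to 5.21, overlap. The difference of 0.62 gave p = 0.0857 when all 70 arrangements of the libraries were enumerated (exact permutation test, two-sided). A different response of the pair was thus not shown at this depth. This test was chosen after the values of both genes were seen.

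**Figure D2:**
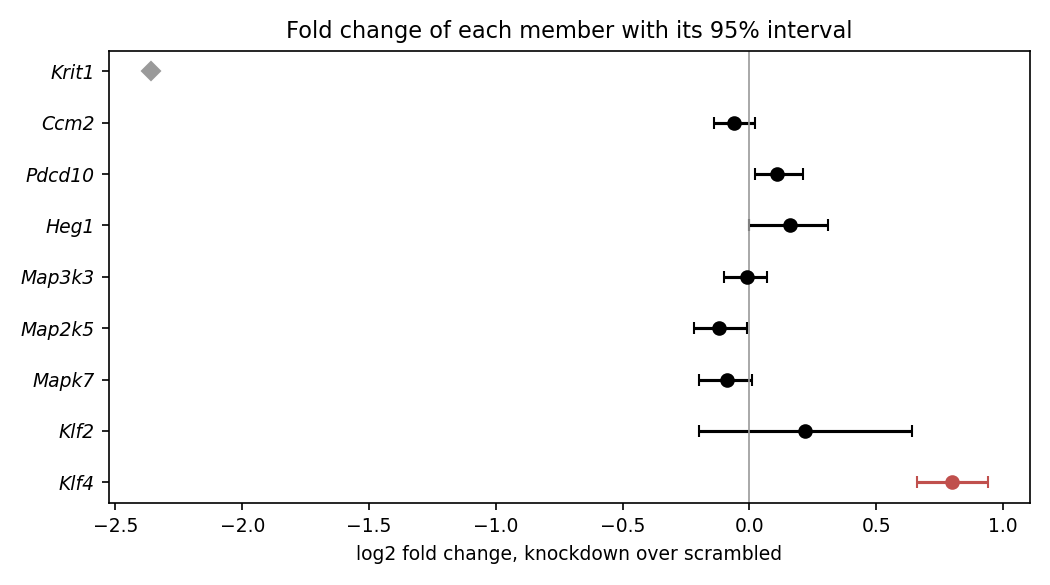
Log2 fold change, knockdown over scrambled, of each member (points) with its 95% interval from the edgeR fit (bars, not adjusted for the number of genes); Krit1 is shown without one because it was chosen on this value. Klf4 (red) was called higher, and the interval of Klf2 is the widest.

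The stretches upstream of Klf2 and Klf4 are shown because the pathway reaches both genes through MEF2 factors. They are RefSeq promoter sequence of GRCm38.p6, 5′ to 3′ on the gene's strand, cut where the annotated transcript begins. Capitals mark the match to the MEF2 motif (CTAAATTTAG in Klf2) and the GC box GGGCGG, or CCGCCC on the other strand, to which SP and KLF proteins bind.
Klf2 (chr8:72318812-72319032, plus strand): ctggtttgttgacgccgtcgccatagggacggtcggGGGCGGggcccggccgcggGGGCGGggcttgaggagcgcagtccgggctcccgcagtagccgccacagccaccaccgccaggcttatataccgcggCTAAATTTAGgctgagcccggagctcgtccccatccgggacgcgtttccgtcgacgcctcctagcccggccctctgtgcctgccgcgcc
Klf4 (chr4:55532476-55532725, minus strand): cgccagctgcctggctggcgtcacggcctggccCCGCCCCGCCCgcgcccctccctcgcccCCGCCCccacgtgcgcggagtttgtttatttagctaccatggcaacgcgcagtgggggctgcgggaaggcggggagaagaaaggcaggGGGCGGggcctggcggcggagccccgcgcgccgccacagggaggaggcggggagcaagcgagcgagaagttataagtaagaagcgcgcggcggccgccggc
Searched on both strands over the 250 bases before the RefSeq start, Klf2 held 1 MEF2 match, ending 109 bases before the start, and 2 GC boxes. Klf4 held 4 GC boxes and no MEF2 match in this window, which says only that these letters are not in it. Of 32851 promoter windows of this length, 2.92% held the MEF2 motif and 32.7% held GGGCGG. The 7 other members held no MEF2 match in their windows.

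The levels of the members were ordered per kilobase of the longest annotated coding transcript, which allows levels to be set beside each other only roughly. In the scrambled libraries Krit1 was the most abundant at 40.7 ± 0.415 CPM per kb, followed by Ccm2 at 33.4 ± 1.04 and Pdcd10 at 24.8 ± 0.401 CPM per kb. Map3k3 (15.9 ± 0.574), Klf4 (13.8 ± 2.31), Map2k5 (13.6 ± 0.493) and Mapk7 (11.3 ± 0.408 CPM per kb) came next, and the range of Klf4 overlapped those of its 2 neighbours in this order. Heg1 (1.44 ± 0.0953) and Klf2 (0.945 ± 0.135 CPM per kb) were by far the lowest. In the knockdown libraries Krit1 was at 7.91 ± 0.274 and Klf4 at 24.0 ± 0.285 CPM per kb, so that Ccm2 was the highest at 32.0 ± 0.906 and Krit1 lay below Mapk7 at 10.7 ± 0.652 CPM per kb. The ratio of Krit1 to Ccm2 per kb was 0.248 ± 0.0138 in the knockdown, against 1.22 ± 0.0461 in scrambled libraries, a difference that follows from the level of Krit1.

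The 2 KLF genes lay in different surroundings. Klf2 is on chromosome 8 (72319033 to 72321656), where the 647 tested genes had a median log2 fold change of 0.207. The value for Klf2, 0.22, differed from that median by 0.01. Of the 6 tested genes nearest to Klf2, 3 were called higher and 0 lower. Eps15l1 was at 0.35 and Fam32a at 0.27 on the log2 scale. Among all tested genes 23.8% were called higher and 24.1% lower (47.9% in either direction). Klf4 is on chromosome 4 (55527143 to 55532466), where the 721 tested genes had a median of −0.05, so its rise was 0.85 above that of its chromosome. Its neighbours were mixed, with Rad23b at −0.03 and Ikbkap at −0.18, while Zfp462, a zinc finger gene, rose by 0.95 (34.0 ± 1.91 against 17.5 ± 2.53 CPM, edgeR adjusted p = 7.1e-10) and Ctnnal1, a relative of alpha-catenin, by 0.22 (edgeR adjusted p = 0.00357).

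**Figure D3:**
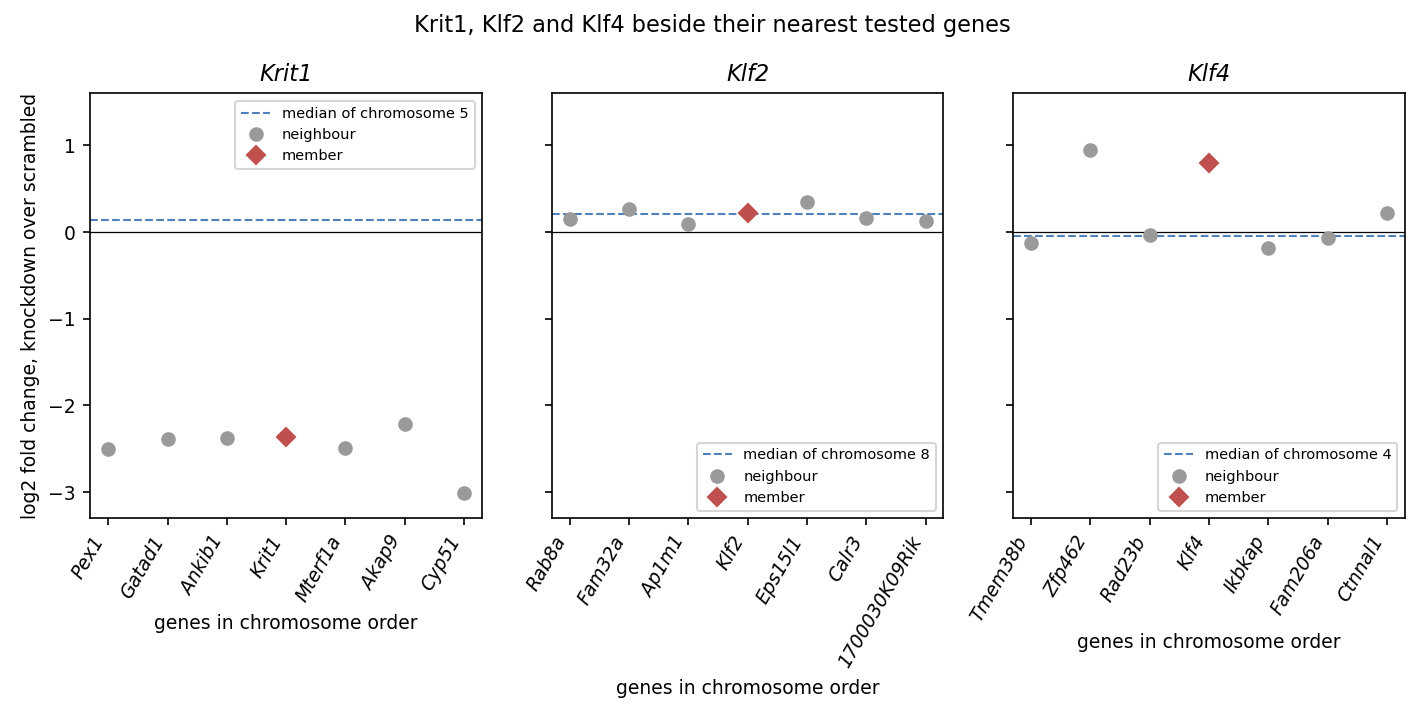
Log2 fold change, knockdown over scrambled (vertical axis), of Krit1, Klf2 and Klf4 (red) and the 3 nearest tested genes on each side (grey), in chromosome order and not to distance; dashed lines are chromosome medians. The neighbours of Krit1 lie between −3.01 (Cyp51) and −2.21 (Akap9), those of Klf2 between 0.09 and 0.35 around a chromosome 8 median of 0.207, and those of Klf4 between −0.18 and 0.95, with Zfp462 and Ctnnal1 called higher and Ikbkap lower.

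The genes whose pattern over the 8 libraries was most like that of Klf4 were Phactr2, a regulator of protein phosphatase and actin, Lamb3, a chain of laminin-332, and Fzd6, a Wnt receptor. Their root-mean-square differences from Klf4 in centred log2 CPM were 0.0813, 0.0818 and 0.0949. Lamb3 stood at 136 ± 3.49 against 74.6 ± 9.46 CPM. The genes most like Klf2 were Tefm (0.157), Maf (0.163) and Zbtb40 (0.166), which were farther from it and none of which was called. Klf2 had only 28 to 55 counts per library, and counting error widens its distances, so they cannot be compared with those of Klf4.

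Other KLF genes were examined to place Klf2 and Klf4 in their family. Of the 15 other members 10 were tested, of which 5 rose, 2 fell and 3 were not called. Their median log2 fold change was 0.09 against 0.0017 over all tested genes. Calls were common among all tested genes too, with 23.8% higher and 24.1% lower (47.9% in either direction). Klf6, an injury-response factor, rose 1.21-fold (335 ± 4.11 against 278 ± 17.0 CPM, edgeR adjusted p = 3.1e-07), and Klf9, a glucocorticoid-induced repressor, 1.24-fold. Klf3, Klf7 and Klf10 were the other rises. Klf3 (log2 0.18) lies on chromosome 5, whose tested genes had a median log2 fold change of 0.137. Klf16 fell 1.11-fold, and Klf12 was near the limit of detection in the knockdown (0.120 ± 0.113 against 0.949 ± 0.0797 CPM). Klf5, a factor of proliferating epithelium, stood at 125 CPM in both groups. Among the KLF genes called higher Klf4 had the largest log2 fold change, 0.80 against 0.18 to 0.37 in the 5 others.

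Of 12 listed CCM partners and Rap1 inputs 10 were tested, 2 rose, 1 fell and 7 were not called (median 0.014), so that 30.0% were called against 47.9% of all genes. Arhgap29, a RhoA GTPase-activating protein that acts below RAP1 and RASIP1, rose 2.61-fold, with 12.7, 14.4, 12 and 12.5 CPM in the knockdown, against 5.58, 4.33, 4.71 and 5.14 CPM in scrambled libraries (edgeR adjusted p = 9.17e-11). The sorting nexin Snx17, which binds KRIT1, rose 1.18-fold and Rapgef1, a RAP1 exchange factor, fell 1.07-fold. Snx17 (log2 0.23) lies on chromosome 5, whose 759 tested genes had a median log2 fold change of 0.137. The RAP1 GTPases Rap1a (67.1 ± 1.79 against 66.9 ± 3.67 CPM) and Rap1b were not called, nor was Itgb1bp1, which binds KRIT1 and integrins. Ccm2l, a relative of Ccm2, had 0 counts in all libraries, and 0 counts leave room for 3 counts, which is 0.127 CPM in the deepest library and 0.157 CPM in the shallowest. Without scrambled replicate 2, 4 genes of this list rose in place of 2, and 1 fell.

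Of 12 tested genes of STRIPAK, the phosphatase assembly that PDCD10 joins, 3 rose, 2 fell and 7 were not called (median 0.057). Thus 41.7% were called, against 47.9% of all genes. Cttnbp2nl rose 1.26-fold (96.7 ± 2.60 against 76.8 ± 2.80 CPM) and Slmap 1.11-fold, while Fgfr1op2 fell 1.1-fold. Strn fell 1.08-fold, and its edgeR adjusted p of 0.0369 became 0.0522 to 0.127 without scrambled replicate 2 or 4 or without knockdown replicate 2, 3 or 4. Without scrambled replicate 2 this list had 1 fall in place of 2.

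Of 9 partners of the MEKK and ERK5 kinases and MEF2 factors 8 were tested, 1 rose, 3 fell and 4 were not called (median −0.044). Calls in either direction were about as common among all tested genes (47.9%). Sgk1, a kinase that the MEKK3 and ERK5 arms are reported to act on, fell 1.95-fold, with 25.0, 23.3, 24.1 and 25.6 CPM in the knockdown, against 46.8, 50.7, 49.1 and 44.3 CPM in scrambled libraries (edgeR adjusted p = 9.52e-13). Mef2a, one of the MEF2 factors that ERK5 activates, rose 1.14-fold (97.8 ± 2.32 against 86.1 ± 2.66 CPM), and Mef2d was not called (62.5 ± 2.89 against 60.6 ± 3.26 CPM). Mef2c was at 0.554 and 0.585 CPM and Mef2b had 0 counts. Sqstm1, an autophagy receptor that also binds the kinases of this arm, fell 1.08-fold. Map3k2, the close relative of Map3k3, stood at 186 ± 4.10 against 183 ± 17.4 CPM and was not called. Without scrambled replicate 2, 2 genes rose in place of 1.

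Genes reported to rise when CCM proteins are lost in endothelial cells did not rise as a group. Of 15 listed, 11 were tested, 2 rose, 4 fell and 5 were not called (median −0.062), so that 54.5% of those tested were called against 47.9% of all genes. Thbd, the anticoagulant receptor thrombomodulin, rose 1.25-fold (8.48 ± 0.534 against 6.80 ± 0.860 CPM, edgeR adjusted p = 0.0123), and Cdh2, N-cadherin, 1.2-fold. Adamts4, a versican-cleaving protease that KLF factors raise in CCM endothelium, fell to 1.02 ± 0.149 from 1.5 ± 0.198 CPM (edgeR adjusted p = 0.0449), and Adamts5 was at 0.113 and 0.0447 CPM. The water channel Aqp1 fell 1.51-fold (79.1 ± 2.65 against 119 ± 19.5 CPM) and the hyaluronan receptor Cd44 1.15-fold. The remaining fall was that of Procr (1.16-fold, edgeR adjusted p = 0.000187). Nos3, the endothelial nitric oxide synthase and a KLF2 target, was at 0.301 and 0.331 CPM.

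Of 6 genes reported to fall on CCM loss 2 were tested. Thbs1, thrombospondin 1, an inhibitor of vessel growth, rose 1.75-fold, with 50.1, 50.4, 54.2 and 51.6 CPM in the knockdown, against 31.2, 26, 28.6 and 32.0 CPM in scrambled libraries, opposite to its reported direction. Sod2, the mitochondrial superoxide dismutase, was not called (57.9 ± 2.09 against 61.8 ± 2.24 CPM, edgeR adjusted p = 0.0543). Without scrambled replicate 2, 1 gene of this list was called lower in place of 0. Both lists come from endothelium and hold genes that these cells hardly express.

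RhoA, ROCK and myosin genes, whose activity CCM proteins restrain, went both ways. Of 14 listed, 13 were tested, 5 rose, 4 fell and 4 were not called (median 0.047). The share called was 69.2%, against 47.9% of all genes, which also went both ways (23.8% higher and 24.1% lower). Rhob rose 1.38-fold (74.0 ± 6.54 against 53.7 ± 1.13 CPM), Mylk, myosin light chain kinase, fell 1.41-fold and Ppp1r12a, the targeting subunit of myosin phosphatase, 1.2-fold. Myl12b rose 1.08-fold, but its close copy Myl12a makes its counts uncertain.

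The list of reported KLF4 outputs in epithelium holds genes that KLF4 is reported to raise and genes that it is reported to repress, so its counts by sign and its median do not measure a common direction. Of 6 tested, 1 rose, 3 fell and 2 were not called (median −0.068). The share called was 66.7%, against 47.9% of all genes. Cdkn1a, the p21 inhibitor of cyclin-dependent kinases that KLF4 is known to raise, fell 1.52-fold (5.25 ± 0.561 against 7.95 ± 0.506 CPM, edgeR adjusted p = 5.22e-05). Cdh1, E-cadherin, reported as activated by KLF4, rose 1.17-fold, and it lies on chromosome 8. Ccnd1, cyclin D1, reported as repressed by KLF4, fell 1.14-fold. The third fall was that of the keratin Krt19 (log2 −0.08, edgeR adjusted p = 0.00506).

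KLF2 and KLF4 also respond quickly to serum and handling, so immediate early genes are given beside them. Of 18 listed, 17 were tested, 6 rose, 5 fell and 6 were not called (median −0.047). The share called was 64.7%, against 47.9% of all genes. Junb rose 1.45-fold (157 ± 9.26 against 108 ± 10.8 CPM) and Jund 1.17-fold, both on chromosome 8, while Maff fell 1.79-fold and Nr4a1 1.49-fold. Fos stood at 6.94 ± 1.00 against 7.17 ± 0.825 CPM. The part of this response in the level of Klf4 was not tested.

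**Figure D4:**
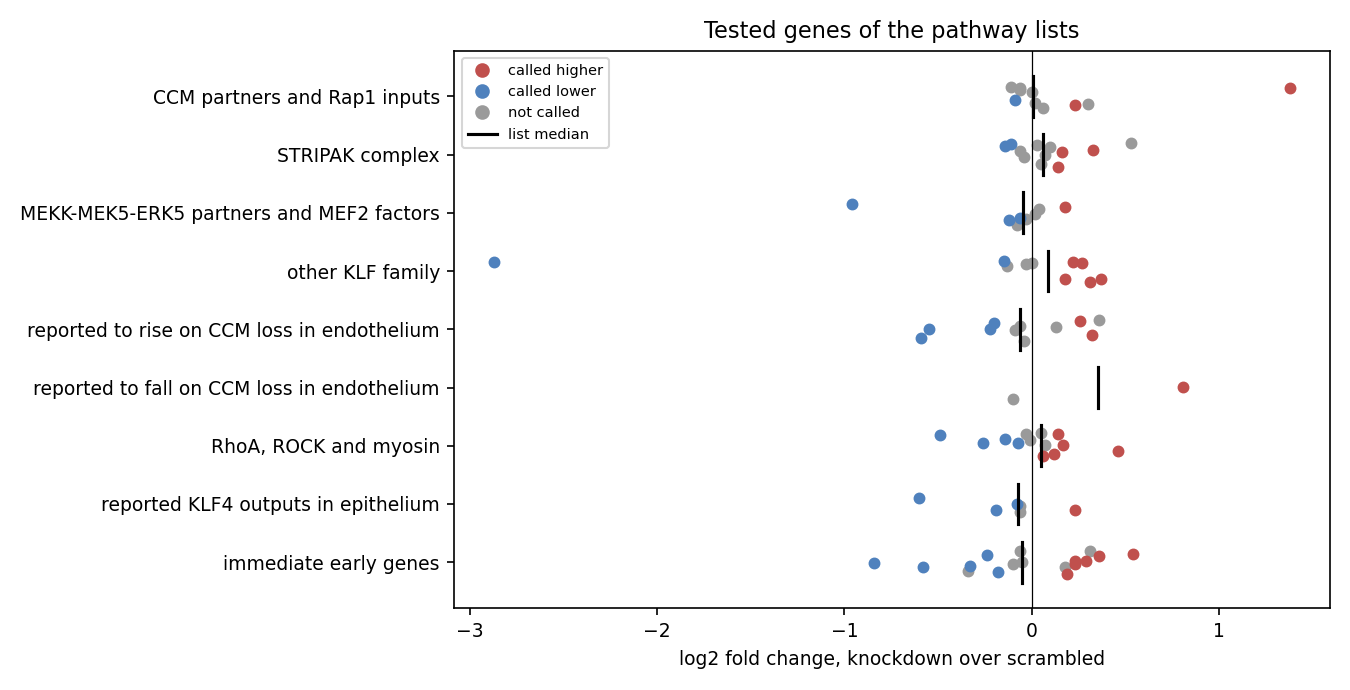
Log2 fold change, knockdown over scrambled (horizontal axis), of the tested genes of 9 pathway lists (rows; vertical scatter within a row is for legibility), red where called higher, blue where called lower, grey where not called, with the list median as a bar. Medians lie between −0.068 and 0.09 except for the list with 2 tested genes, and the point at −2.87 is the low-abundance Klf12.

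Several of the genes named above (Snx17, Rapgef1, Cttnbp2nl, Fgfr1op2, Mef2a, Sqstm1, Thbs1, Mylk, Cdkn1a, Ccnd1, Junb and Jund among them) share exon bases with another gene on the opposite strand, so their counts are uncertain without the strand setting. The 8 ductal epithelium markers summed to 11521 to 11849 CPM in the knockdown, against 10826 to 11791 CPM in scrambled libraries. Of them 4 were called higher (Krt7 and Muc1 among them) and 2 lower (Sox9 and Krt19), which is 75.0% against 47.9% of all genes. These markers are ductal epithelium genes. Keratins made up most of their summed level, and Epcam, an epithelial adhesion protein, stood at only 5.62 ± 1.16 against 7.15 ± 1.80 CPM and was not called. Of 10 endothelial markers Emcn and Cldn5 had 0 counts, Pecam1, Cdh5, Tek, Vwf and Tie1 were at means of at most 0.121 CPM, Kdr and Esam were below 1 CPM, and Flt1 alone was above it. Flt1, a VEGF receptor, fell 1.66-fold (15 ± 1.56 against 24.8 ± 0.869 CPM), and with it the summed level of the list, 13.6 to 17.4 against 25.5 to 28.1 CPM. The part of this in the levels of the members was not tested. Fibroblast markers summed to at most 1.41 CPM, with 4 of 7 at 0, and leukocyte markers to at most 4.30 CPM, with Adgre1 at 0 and most of the sum in Cd68. Neither of these lists held a called gene.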

How the data were processed

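The deposited values are unnormalized read counts by gene symbol, with a column for each library and 0 columns that match no sample. Per the labels' protocols, RNA with an integrity number of at least 7 was made into stranded mRNA libraries and sequenced with paired 59-base reads. Per the submitters' processing notes the genome build was mm10, and the notes name DESeq2 1.36.0 under R 4.2.1, STAR, Bowtie and bcl2fastq 2.20 without their roles. How reads were counted (tool, annotation, strand) is "not given in the sources used here". Of the symbols, 27 had been turned into dates and stayed in the fit without a gene name.

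Counts were fitted in R 4.3.3 with edgeR 4.0.16 on group alone (filterByExpr with minimum count 10 and total 15, TMM factors 0.991 to 1.01, glmQLFit and glmQLFTest, Benjamini-Hochberg adjustment over all tested genes). The fit was checked on simulated counts. SEs come from the fold change and its F value. Symbols were matched to GENCODE M21 of GRCm38 by current symbol (23309) or older RefSeq symbol (642), with 470 left out of positions. Intervals are at 95%, and intervals and zero-count limits cover counting error or library spread only.

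The members and the gene lists were chosen with earlier results of these data known. Named genes were the 9 members, up to 2 called genes per direction and list (mean 1 CPM or more), the 3 tested neighbours on each side of Krit1, Klf2 and Klf4, and the 3 genes of at least 5 CPM most like each of these. Klf3, Klf5, Klf7, Klf10, Klf12, Adamts4, Adamts5, Procr, Nos3, Sod2, Fos and the partners given as not called were named after their values were seen. Alternatives were other scalings, filters, thresholds, tests (DESeq2 1.42.0, limma-voom in limma 3.58.1, a fold limit of 1.2), the replicate number as a block, and leaving out each library.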

Additional observations from a re-analysis of the deposited data

Results flagged for a closer look

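In groups of 4 libraries, a library was marked where its gap to the nearest other passed Dixon's critical value as a share of the group's range, which chance gives in about 1 of 20 groups. Of 86 groups (43 genes in 2 groups each, the 9 members and the named genes of the lists) 4 were marked, and none of them was a member. Ccnd1 was lowest in scrambled replicate 2 at 2003.7 CPM, with the others at 2116.8 to 2140.0 CPM. Myl12b was highest in the same library at 244.1 CPM, with the others at 231.3 to 232.9 CPM. Cd44 was highest in knockdown replicate 1 at 440.2 CPM, with the others at 424.6 to 426.7 CPM. Strn was lowest in knockdown replicate 3 at 56.2 CPM, with the others at 59.6 to 59.8 CPM.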

How the results depend on the processing

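The rise of Klf4 was called under all 17 alternatives and Klf2 under none. Of the 8 members other than Krit1, 3 were called with library totals in place of TMM factors (Pdcd10, Heg1 and Klf4), 2 without a low-count filter, 2 with a filter of 1 CPM in 4 libraries and 2 with the replicate block (Pdcd10 and Klf4 each time), and 1 to 4 when single libraries were left out. Map3k3 changed sign, to 0.01 with library totals and, over left-out libraries, from −0.04 to 0.01 (0.01 without scrambled replicate 1 and 0.00084 without knockdown replicate 1), never called, and the cause was not tested. Over all genes 5645 were called, 1107 against a fold limit of 1.2, by construction fewer, and 5116 to 6004 without single libraries. Calls were split 49.1 to 52.8% higher under the alternatives, but 58.4% with library totals, which moved the median of all genes to 0.0273 on the log2 scale. Over 43 fold changes and 731 pairs of result and alternative, 687 kept direction and call, 32 lost the call, 9 gained one and 3 changed sign. Most of the 43 were list genes named because they were called with a small adjusted p, and Krit1 was chosen on its value. That choice favours keeping the call, so these counts do not measure how stable calls are in general. Of 78 list counts under other settings chosen after seeing the data, 71 stayed within 1.5 times.

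The replicate numbers are shared by the groups but did not pair the libraries. Correlations of same-numbered libraries' deviations ran from −0.035 to 0.0201, and 1 of 8 libraries correlated best with its own number. With the replicate block 5533 genes were called, and 2 of the 8 members. The ratio test of Klf4 and Klf2 gave differences of 0.48 to 0.83 (exact permutation p = 0.0571 to 0.171) without single libraries. With a library left out, 0.0571 is the smallest p that this test can give. It was reached without scrambled replicate 2. No p under 0.05 was possible, so these p-values do not show whether the outcome is stable. Depth limits Klf2, with 28 to 55 counts per library.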
